A study of Mus musculus with 8 samples.

Results

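The 83 genes described here encode the proteins of the cytosolic ribosome of the mouse, 51 of the large subunit and 32 of the small subunit, among 53465 genes in the deposited table. They were picked by a rule on names: protein-coding genes with an Rpl or Rps symbol and a number, with Rpsa, Rplp0, Rplp1 and Rplp2 added, and with pseudogenes and ribosomal protein kinases left out. The rule itself uses no measured value, but the list was chosen with earlier results of these data known. In all, 79 members reached a mean level of 3 on the log2 scale of the table and were tested, as were 16380 genes in total.

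RNA was sequenced from 4 B6 mice with a conditional deletion of Arg1 (Arg1 ko) and from 4 Arg1-expressing littermates (wild type), matched for age and sex and 7 to 12 weeks old. The product of Arg1, arginase 1, hydrolyses arginine to urea and ornithine. The labels call the deletion cell-specific and do not name the cell type or the Cre line. All 8 mice, the controls included, drank 2.5% DSS (dextran sulfate sodium, which damages the lining of the colon) for a week and then plain water until day 10. No mouse without DSS was analysed here. The samples are labelled as colon tissue, while the protocol describes epithelial aggregates shaken off after incubation in 30 mM EDTA. The epithelial markers Epcam (15.1 to 15.7) and Krt8 (15.9 to 16.4) were high in all 8 libraries on the scale of the table, the regularised log2 value (rlog). So were markers of smooth muscle and stroma, with Acta2 at 14.45 to 14.97, Des at 13.4 to 13.8 and Dcn at 13.1 to 13.5.

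A ribosome is built of a small subunit, which reads the messenger RNA, and a large subunit, which joins the amino acids. Its proteins are made in near equal amounts and assembled with ribosomal RNA in the nucleolus. Most of their messenger RNAs begin with a run of C and T (U in the RNA), the 5′ terminal oligopyrimidine or TOP element. Through it the growth-control kinase complex mTORC1 and the binding protein LARP1 set how much of these messengers is translated and stored. The colonic epithelium renews itself throughout life and depends on a large supply of ribosomes.

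The start sites of members were read from RefSeq promoter sequences on GRCm38.p6 to show which of the genes below carry the letters of a TOP start. Each sequence holds 15 bases before and 15 bases from the annotated start, 5′ to 3′ on the gene's strand, with the longest run of C and T in capitals. The first 4 lines are members with a run of at least 8 bases at or around the start whose levels are described below. Rpl4 also has such a run, but ahead of its RefSeq start, and it varied least across libraries. In GENCODE vM21 the Rpl4 gene starts at base 64173375, inside that run. Rplp0, often used as a reference gene, and Rpl7l1, the member that followed the others least, have no such run in this window.
Rps27, chr3:90213634-90213663, minus strand: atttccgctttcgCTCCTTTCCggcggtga
Rps6, chr4:86857353-86857382, minus strand: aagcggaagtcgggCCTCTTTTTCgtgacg
Rpl38, chr11:114668565-114668594, plus strand: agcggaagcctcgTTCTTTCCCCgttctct
Rplp2, chr7:141447636-141447665, plus strand: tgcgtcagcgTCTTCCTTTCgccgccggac
Rpl4, chr9:64173372-64173401, plus strand: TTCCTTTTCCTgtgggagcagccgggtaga
Rplp0, chr5:115559452-115559481, plus strand: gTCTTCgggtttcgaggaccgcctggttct
Rpl7l1, chr17:46782642-46782671, minus strand: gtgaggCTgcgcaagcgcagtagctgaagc

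Promoters were found for 63 of the 83 members, with 75 starts. A run of at least 8 C or T lay in the 30-base window of 37.3% of them, against 12.0% of 32841 starts of all genes. In the wider promoter, from 250 bases before to 50 bases after the start and on both strands, the letters CCGGAAG, the core recognised by the ETS family, stood in 36.0% of member promoters (27 of 75) and in 8.86% of all promoters. The letters AAGATGG, the core of the YY1 motif, stood in 16.0% and 6.34%, and the TATA box letters TATAAA in 9.33% and 13.6%. These are matches of letters, not measured binding, and an annotated start can lie some bases from the one used in the colon. The median difference between genotypes, Arg1 ko minus wild type, was -0.43 for the 27 tested members with the run and -0.41 for the 32 tested members with a promoter but without it.

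Arg1 itself, the deleted gene, read 5.59, 5.57, 5.02 and 5.58 in wild type 1 to 4 and 5.06, 4.87, 5.15 and 5.19 in Arg1 ko 1 to 4. The library labelled wild type 3 lies inside the Arg1 ko range, so the members' results are also given without it further below. The Arg1 difference was -0.37 (SE 0.15), which did not pass limma's test (adjusted p = 0.522). As the deletion is called cell-specific and the cell type is not named, the Arg1 level cannot decide whether a label is right. The sample numbers in the labels form one run for wild type and another for Arg1 ko, and a difference between the runs cannot be told apart from genotype. Depth is unknown because the table holds no counts.

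Ribosomal protein messengers were lower in Arg1 ko for 78 of 79 tested members, but no single gene passed the test and the wild-type libraries disagreed among themselves. The median difference was -0.42 on the log2 scale, with a range from -0.58 to 0.12, against 0.0064 over all 16380 tested genes. The large subunit (median -0.42, 46 of 47 lower) and the small subunit (median -0.43, 32 of 32 lower) were alike in this. Over all tested genes 48.8% were lower. Of the members, 0 of 79 were called at an adjusted p under 0.05 by limma, with Benjamini-Hochberg adjustment over all tested genes, where the background was 0.0%. Their adjusted p-values ran from 0.522 to 0.786. At an unadjusted p under 0.05, 27 members were lower and 0 higher, beside 4.37% of all genes lower and 4.73% higher. In 0 of 79 members did the 4 Arg1 ko values lie apart from the 4 wild-type values, beside 1.67% of all genes wholly below and 2.36% wholly above.

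The split ran inside the wild-type group. Measured from each gene's own mean, the median member stood at 0.71, 0.40, -0.36 and 0.11 in wild type 1 to 4 and at -0.31, -0.14, -0.08 and -0.32 in Arg1 ko 1 to 4. Wild type 1 was the highest library for 77 of 79 members (26.5% of all genes), and wild type 1 and 2 both stood above every Arg1 ko library for all 79 tested members. Wild type 4 did so for 73. The library labelled wild type 3 stood above all Arg1 ko libraries for 0 members, below all of them for 57 and within their range for 22 (49.8% of all genes). For single wild-type libraries above or below every Arg1 ko library, the shares of all genes were not counted. Those counts therefore do not show what is particular to the members. The set of wild type 1, 2 and 4 above the other 5 libraries was found in 73 members and in 12.4% of all genes. Averaged over the 4 libraries of a genotype, these medians came to 0.22 with an SD of 0.45 for wild type and to -0.21 with an SD of 0.12 for Arg1 ko, so the group means differed by less than 1 wild-type SD. In linear terms the members stood 1.89-fold higher in wild type 1 than in the Arg1 ko mean.

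**Figure D1:**
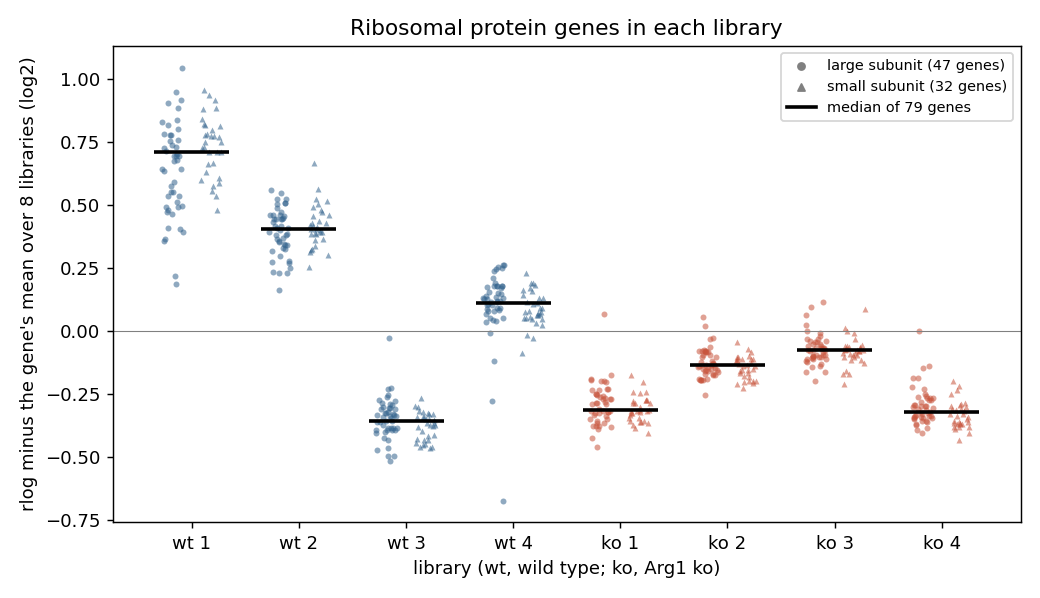
Deviation of each of the 79 tested ribosomal protein genes from its own mean over 8 libraries (log2, vertical axis) in each library (horizontal axis). The members move as a block in each library: wild type 1 has a median of 0.71 and wild type 3 a median of -0.36, with the Arg1 ko medians between -0.32 and -0.08.

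The spread was larger in wild type than in Arg1 ko for 79 of 79 members, with a median SD of 0.46 against 0.12. This held for 90.9% of all tested genes, whose median SDs were 0.258 and 0.096. The whole wild-type group was thus more variable.

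Members moved together across libraries. A member correlated with the median of the other members at a median Pearson r of 0.99 over the 8 libraries, and 74 of 79 had an r above 0.95. After the library median was taken out, 7.24% of the members' squared deviation was left. The lowest values belonged to Rpl7l1 (0.18), Rpl13a (0.87), Rpl4 (0.88), Rpl29 (0.93) and Rpl10 (0.94). These correlations describe 8 libraries that share 1 scaling, and members whose reads can fall on the same pseudogenes also share those.

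The share of the tested members was taken of the linear signal of all tested genes (2 to the power of rlog, summed). It came to 5.51%, 4.56%, 2.94% and 3.68% in wild type 1 to 4 and to 3.03%, 3.38%, 3.42% and 2.96% in Arg1 ko 1 to 4. Because rlog is drawn toward the gene mean, these are not shares of reads. The shares in wild type 1, 2 and 4 lay above those of all Arg1 ko libraries, and that of wild type 3 lay below them.

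The stalk proteins Rplp0, Rplp1 and Rplp2 form the arm of the large subunit that recruits elongation factors. Rplp0 (chr5:115559467-115563727, GRCm38) read 15.31, 15.14, 14.43 and 14.87 in wild type 1 to 4 and 14.49, 14.68, 14.70 and 14.46 in Arg1 ko 1 to 4. Wild type 1, 2 and 4 were high, and wild type 3 was the lowest of the 8, so the groups overlapped. The means were 14.94 ± 0.38 and 14.58 ± 0.12 (SD, n = 4), and the difference of -0.36 (SE 0.18) had an adjusted p of 0.522 in limma. Rplp1 read 15.12, 14.76, 13.80 and 14.23 against 13.86, 14.09, 14.17 and 13.86, a difference of -0.48. Rplp2 read 14.40, 13.92, 12.98 and 13.51 against 13.15, 13.32, 13.40 and 13.14, a difference of -0.45. In both of these acidic stalk proteins wild type 3 was again the lowest library. Without wild type 3 the Rplp2 difference was -0.69, and without wild type 1 and 2 it was 0.0040.

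In the small subunit, Rps6 is the protein phosphorylated by S6 kinase downstream of mTORC1. Rps6 (chr4:86854660-86857412) read 13.52, 13.31, 12.61 and 13.08 in wild type and 12.62, 12.79, 12.84 and 12.62 in Arg1 ko, a difference of -0.41 (SE 0.18, limma adjusted p = 0.522). Rpsa, which is also described as a laminin receptor, read 14.82, 14.38, 13.59 and 14.05 against 13.67, 13.84, 13.97 and 13.69, a difference of -0.42. In both genes 3 wild-type libraries stood above all 4 Arg1 ko libraries and wild type 3 stood below them.

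Rps3, which lines the entry of the messenger RNA channel, differed by -0.39. Rps14 and Rps19, whose human counterparts are linked to the 5q- syndrome and Diamond-Blackfan anaemia, differed by -0.57 and -0.40. Rps14 read 14.61, 14.40, 13.27 and 13.79 in wild type and 13.37, 13.54, 13.56 and 13.33 in Arg1 ko. Wild type 1, 2 and 4 stood above the highest Arg1 ko library and wild type 3 below the lowest. Rps25, needed by several internal ribosome entry sites, differed by -0.39, and Rps4x by -0.34. Rps27a, made as a fusion with ubiquitin, differed by -0.51.

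Rps27 (chr3:90212522-90213651), a zinc finger protein of the small subunit, had the smallest unadjusted p of all members, 0.0170 in limma. It read 14.12, 13.89, 13.04 and 13.60 in wild type and 13.01, 13.21, 13.16 and 12.94 in Arg1 ko. Here wild type 3 lay within the Arg1 ko values and the other wild-type libraries lay above them. The difference was -0.58 (SE 0.20), the largest of all tested members, with an adjusted p of 0.522. Rpl30 (-0.42), Rpl5 (-0.44), Rpl22l1 (-0.51) and Rpl39 (-0.47) followed with unadjusted p-values of 0.0247, 0.0257, 0.0262 and 0.0277.

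Rpl5 and Rpl11 carry the 5S ribosomal RNA into the large subunit and, when unassembled, bind Mdm2 and so stabilise p53. Rpl5 (chr5:107900502-107909005) read 14.00, 13.97, 13.18 and 13.75 in wild type and 13.27, 13.31, 13.34 and 13.21 in Arg1 ko. The Arg1 ko values were tightly grouped (13.28 ± 0.06, SD, n = 4), while wild type spread over 13.73 ± 0.38. Rpl11 read 13.71, 13.60, 12.82 and 13.36 against 12.89, 13.03, 13.11 and 12.91, a difference of -0.39. Rpl23, which also binds Mdm2, differed by -0.41.

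Rpl38, known from mouse mutants with altered Hox protein translation, had the widest range of all members. Rpl38 (chr11:114668524-114672331) read 12.91, 12.31, 11.35 and 11.96 in wild type and 11.48, 11.70, 11.75 and 11.46 in Arg1 ko, a range of 1.56 with a difference of -0.53. Wild type alone spanned that range, from wild type 1 down to wild type 3. Rps21 (range 1.42) and Rplp2 (1.41) came next. Rpl10a differed by -0.31, as did Rpl3, a protein near the peptidyl transferase centre.

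Rpl4, whose long loop lines the exit tunnel of the nascent peptide, had the narrowest range, 0.49. Rpl4 (chr9:64173375-64178666) read 14.92, 14.94, 14.48 and 14.97 in wild type and 14.53, 14.63, 14.67 and 14.52 in Arg1 ko. In this gene 3 wild-type libraries were nearly equal and wild type 3 stood alone below them, just under the lowest Arg1 ko value. Rpl15 (range 0.62, difference -0.21) and Rpl10 (0.63, -0.30) were the next least variable.

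**Figure D2:**
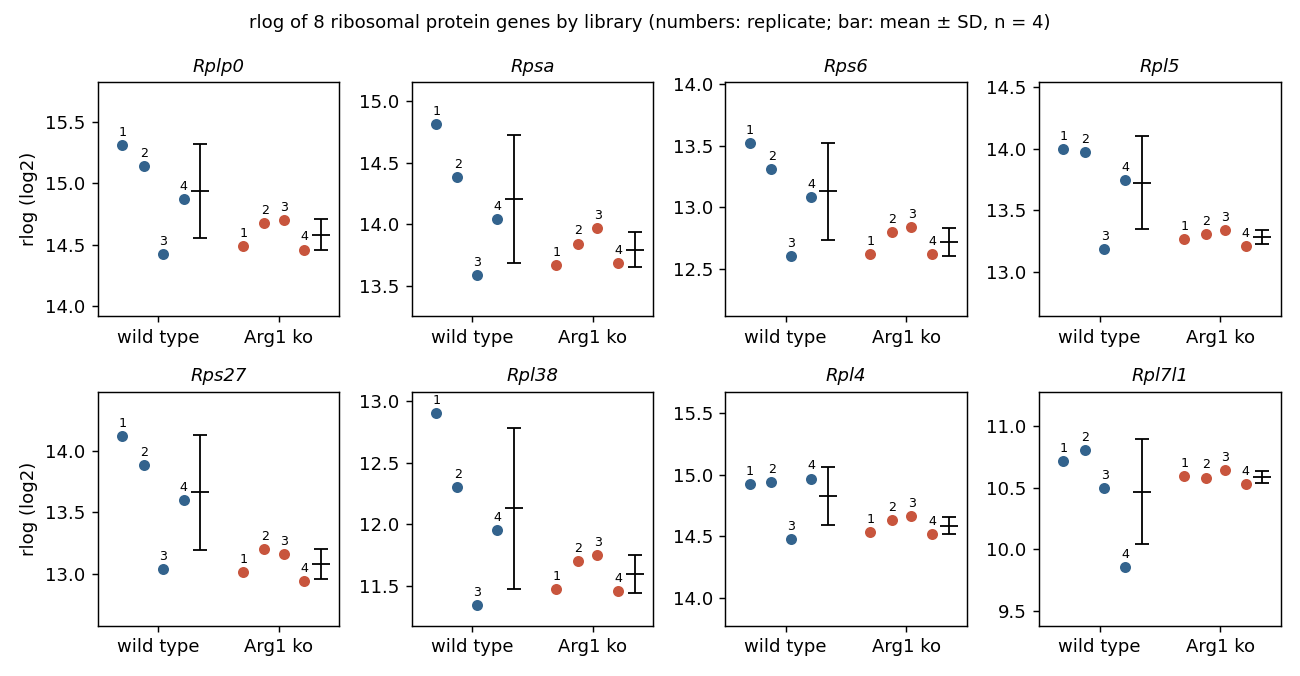
rlog of 8 ribosomal protein genes in each library (points, numbered by replicate) with the mean and SD of each group of 4 (bars), each panel on its own axis of rlog. In 7 panels wild type 3 is the lowest wild-type library and stands beside the Arg1 ko libraries, and in Rpl7l1 wild type 4 is the lowest at 9.86.

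Levels between members were compared only per length, as rlog minus log2 of the transcript length in kilobases. On that scale Rplp1 (15.24), Rps29 (15.06) and Rps27 (14.91) were highest and Rpl13a (8.31), Rpl7l1 (9.15) and Rps15a (10.66) lowest. The value of Rps15a rests on an annotated transcript of 5179 bases. Without the correction for length the tested members had mean rlog values from 8.38 to 14.76 (median 13.18), against a median of 8.62 over all tested genes, and 22 of them stood above the 99th percentile.

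The 4 members below the filter were Rpl3l, a form of striated muscle, Rpl10l and Rpl39l, forms known from the testis, and Rpl24, a general subunit protein. Rpl3l read 1.89 to 2.28 and Rpl39l -0.49 to -0.35, and Rpl10l was listed at 0 in all 8 libraries. Rpl24 read only 2.00 to 2.33. In the annotation 47.0% of the exon bases of Rpl24 (chr16:55966275-55971435) lie under another gene of the same strand, Gm28037, itself listed at 0 in all 8 libraries. Rpl13a, a protein also studied for its role outside the ribosome in interferon-treated cells, had the lowest mean of the tested members. It has 35.4% of its exon bases under Gm45713 and small RNA genes on the same strand. Rpl13a read 9.16, 8.63, 8.02 and 8.10 in wild type and 8.12, 8.30, 8.48 and 8.24 in Arg1 ko, so that only wild type 1 and 2 were high, and its difference was -0.20. What the overlap did to these 2 levels was not tested.

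Several ribosomal proteins have a second gene, and a difference between the pair within a library drops what both genes share. Rpl7l1 followed the other members little (Pearson r = 0.18), so Rpl7l1 minus Rpl7 still holds the difference of Rpl7 (-0.39). Of 7 such pairs 3 could be tested, by an exact two-sided permutation test over 70 assignments whose smallest p is 0.0286. Rpl7l1 minus Rpl7 averaged -3.91 ± 0.46 for wild type and -3.40 ± 0.04 for Arg1 ko (SD, n = 4, exact p = 0.114, adjusted over 3 pairs 0.171). Rpl7l1 (chr17:46773907-46782672), whose yeast counterpart acts in the nucleolus during assembly, read 10.72, 10.81, 10.50 and 9.86 in wild type and 10.60, 10.58, 10.64 and 10.53 in Arg1 ko. It was thus the 1 tested member with a higher mean in Arg1 ko (0.12, SE 0.18, limma adjusted p = 0.786), and without wild type 4 that difference was -0.0862.

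Rps27l, a p53 target, read 11.80, 11.39, 10.77 and 10.98 in wild type and 10.83, 10.86, 11.06 and 10.87 in Arg1 ko. Relative to Rps27 it was higher by 0.25 in Arg1 ko (exact p = 0.0857, adjusted 0.171). Rpl22l1, the counterpart of the T cell development gene Rpl22, read 11.97, 11.54, 10.88 and 11.46 against 10.90, 10.95, 11.14 and 10.84. Rpl22l1 minus Rpl22 averaged -1.33 ± 0.14 for wild type and -1.40 ± 0.07 for Arg1 ko (SD, n = 4, exact p = 0.371, adjusted 0.371). None of the 3 pairs passed.

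Leaving out single libraries moved the result strongly. Without wild type 3, 49 members passed limma's test, all lower in Arg1 ko (30 of the large and 19 of the small subunit), beside 3.28% of all genes called lower and 6.14% called in either direction. The median difference was then -0.62, and 73 members had all Arg1 ko values below all wild-type values, beside 13.1% of all genes. Of the 32 tested members named by rule 18 passed: Rpl3, Rpl5, Rpl7, Rpl10, Rpl11, Rpl22l1, Rpl23, Rpl30, Rpl39, Rps3, Rps4x, Rps6, Rps14, Rps15a, Rps21, Rps25, Rps27 and Rps27a. Their adjusted p-values in limma ran from 0.0284 (Rpl5) to 0.0466 (Rps15a), with 0.0291 for Rps27, 0.0326 for Rpl11, 0.0331 for Rpl22l1, 0.0363 for Rps6 and 0.0428 for Rps14. Those that did not pass ran from 0.0501 (Rplp0) to 0.716 (Rpl7l1), with 0.0557 for Rpl38, 0.0636 for Rplp2 and 0.0676 for Rpsa. Leaving out the lowest library of the higher group enlarges a difference by construction. Without wild type 1 and 2, the 2 libraries with the highest members, 0 members passed, 1 had an unadjusted p under 0.05 (Rpl7l1, higher in Arg1 ko by 0.41; 13.1% of all genes in either direction), and the median difference was -0.08. The 27 members at an unadjusted p under 0.05 became 77 without wild type 3 (28.1% of all genes in either direction), 1 without wild type 1 (8.16%), 0 without wild type 2 (4.22%) and 7 without wild type 4 (8.56%). They became 1 without Arg1 ko 1 (4.32%), 6 without Arg1 ko 2 (6.03%), 11 without Arg1 ko 3 (5.2%) and 1 without Arg1 ko 4 (3.55%). The count thus turned on any 1 library, while the median difference stayed between -0.62 and -0.26.

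**Figure D3:**
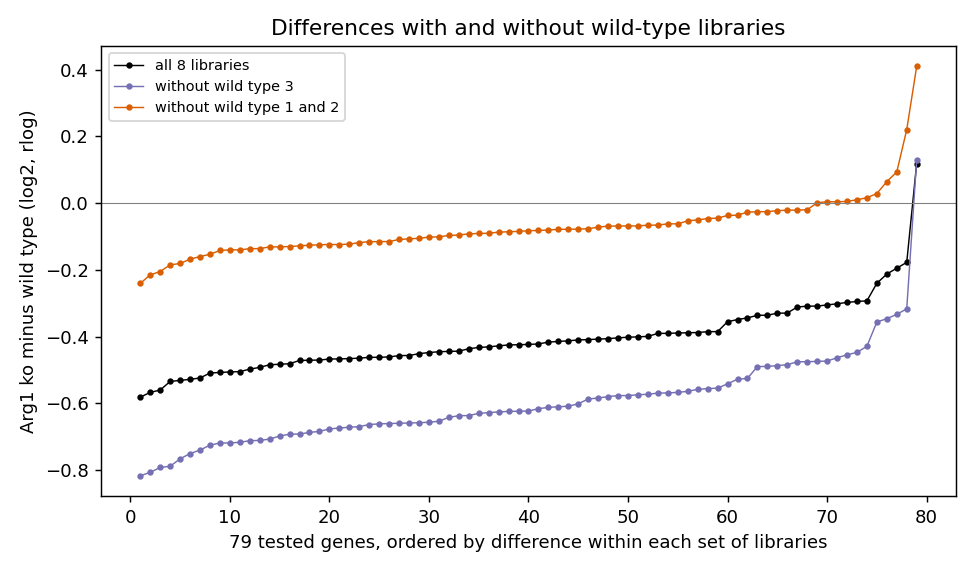
Difference of each tested member, Arg1 ko minus wild type (log2), with all 8 libraries, without wild type 3 and without wild type 1 and 2. The median moves from -0.42 to -0.62 and to -0.08.

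Transcript length moved with part of this split: short genes stood high in wild type 1 and 2, but not in wild type 4. Members are short, with a median transcript of 886 bases against 2848 for tested genes, and 76 of 79 lie below that median. Across 16367 genes the correlation of log2 length with a gene's deviation was -0.59, -0.44, 0.39 and 0.16 in wild type 1 to 4 and 0.44, 0.23, 0.10 and 0.30 in Arg1 ko 1 to 4. Among the 79 members alone, coding length gave -0.57, -0.39, 0.44 and 0.14 in wild type and 0.39, 0.33, 0.23 and 0.33 in Arg1 ko. The 40 members with a coding sequence of up to 453 bases had a median deviation of 0.75 in wild type 1, against 0.60 for the 39 longer ones. Their median differences between genotypes were -0.45 and -0.39. With a smooth trend in transcript length removed from each library the median difference of the members was -0.28. These correlations are across genes, which are not independent, and the part of length in the result was not tested further.

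**Figure D4:**
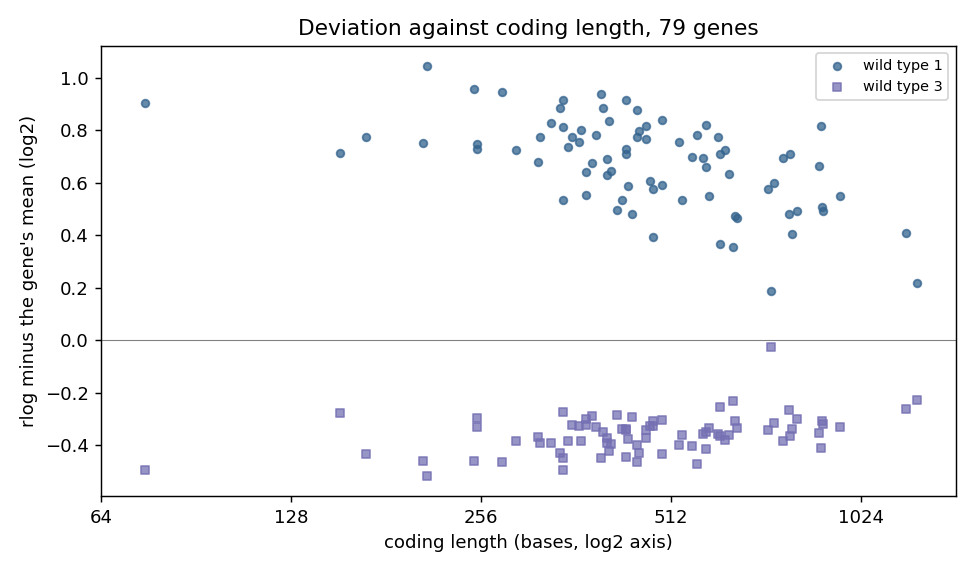
Deviation of each tested member from its mean (log2, vertical axis) against its coding length in bases (horizontal axis, log2 scale) in wild type 1 (circles) and wild type 3 (squares). Shorter members stand higher in wild type 1 (r = -0.57) and lower in wild type 3 (r = 0.44).

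Ribosomal protein genes have many processed pseudogenes, and the sources used here do not say how reads with several matches were counted. A median of 43.9% of the 50-base words in a member's transcripts also occur in transcripts of other genes, and 33 members share more than 50%. The median difference was -0.43 for the 32 tested members above that share and -0.42 for the other 47. The table lists 289 ribosomal protein pseudogenes, of which 28 were tested, and all 28 were lower in Arg1 ko (median -0.30, and -0.16 without wild type 1).

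Genes that share the TOP element or the ribosome with the members showed part of the pattern, and none passed limma's test (0 called in every list named here). Of 20 elongation factor and other TOP messenger genes 18 were lower (median -0.25, and -0.37 without wild type 3). Of these, 6 were lower at an unadjusted p under 0.05 in limma, beside 4.37% of all tested genes. Eef1b2, an exchange factor of elongation, differed by -0.48, Btf3, a nascent chain partner, by -0.43, Tpt1 by -0.35 and the initiation factor subunit Eif3e by -0.29. At the other end of this list by p, Eef2 differed by -0.10, Hnrnpa1 by -0.06, Pabpc1 by 0.01 and Eif3a by 0.11. Oxidative phosphorylation genes, a list not built on the TOP element, had a median of -0.28, so the lower level was not particular to TOP genes. Fau and Rack1, which encode a protein and a scaffold of the small subunit under other names, differed by -0.53 and -0.36. Rpl36al, of the large subunit, differed by -0.18.

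The 8 host genes of small nucleolar RNAs were all lower (median -0.52), 7 at an unadjusted p under 0.05, beside 4.37% of all tested genes. Epb41l4aos read 9.08, 8.90, 7.95 and 9.18 in wild type and 7.88, 8.21, 8.04 and 7.83 in Arg1 ko, a difference of -0.79 with an unadjusted limma p of 0.00915 and an adjusted p of 0.522. Zfas1 differed by -0.70 and Gas5 by -0.47. In these noncoding hosts wild type 4 stood as high as wild type 1, with list medians of 0.55 in both, where the members had 0.11 and 0.71.

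The assembly machinery did not share the members' level of difference. Of 40 ribosome biogenesis genes 28 were lower and 12 higher, with a median of -0.07 (-0.0203 without wild type 1 and -0.1256 without wild type 3). At an unadjusted p under 0.05, 4 were higher, among them Heatr1 (0.34), Polr1a (0.31) and Polr1b (0.35), which act in the making of ribosomal RNA, and Dkc1 (0.23), the pseudouridine synthase (Dkc1, Polr1d, Gas5, Myc, Mxd1, Eef2, Hnrnpa1, Pabpc1 and Eif3a are named after their values were seen). The 2 lower ones were Sbds (-0.32), which frees new large subunits of an assembly factor, and the polymerase subunit Polr1d (-0.41). Beside these counts, 4.73% of all tested genes were higher and 4.37% lower at that p in limma. Of 18 growth regulators 8 were lower and 10 higher (median 0.04), with 3 in each direction at an unadjusted p under 0.05, beside the same shares of all genes. Rptor, the mTORC1 subunit, read 9.08, 9.20, 9.62 and 9.06 in wild type and 9.61, 9.68, 9.68 and 9.76 in Arg1 ko, a difference of 0.45 with an unadjusted limma p of 0.00648 and an adjusted p of 0.522. Here wild type 3 again stood with the Arg1 ko libraries, this time high. Myc and its antagonist Mxd1 were both among the higher 3, with differences of 0.44 and 0.28. The lower 3 were the translation repressor Eif4ebp1 (-0.50), the RNA polymerase III repressor Maf1 (-0.32) and the mTORC1 inhibitor Ddit4 (-0.61). With the trend in transcript length removed, the median of the growth regulators was -0.062. The part of length in the contrast between these lists and the members was not tested.

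Mitochondrial ribosomal proteins and oxidative phosphorylation genes were high in wild type 1 and 2, while wild type 4 stood among the Arg1 ko libraries. Their list medians in wild type 4 were -0.12 and -0.04. Of 77 tested mitochondrial ribosomal proteins 67 were lower (median -0.19, 1 at an unadjusted p under 0.05, Mrpl33 at -0.47). Of 77 tested oxidative phosphorylation genes 73 were lower (median -0.28, 2 at an unadjusted p under 0.05). Over all tested genes 4.37% were lower at that p in limma, a larger share than in either list. Both medians moved with single libraries. The mitochondrial ribosomal proteins had -0.0409 without wild type 1 and -0.3234 without wild type 3, and oxidative phosphorylation had -0.1123 and -0.4325. Without wild type 1 and 2 together they were 0.0906 and 0.0497. The 5 protein-coding genes outside the members with the highest Pearson correlation with the members' median over the 8 libraries were Vamp8 (0.9968), Hint1 (0.9961), Naca (0.9958), Chmp2a (0.9955) and Cox7a2 (0.9948).

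**Figure D5:**
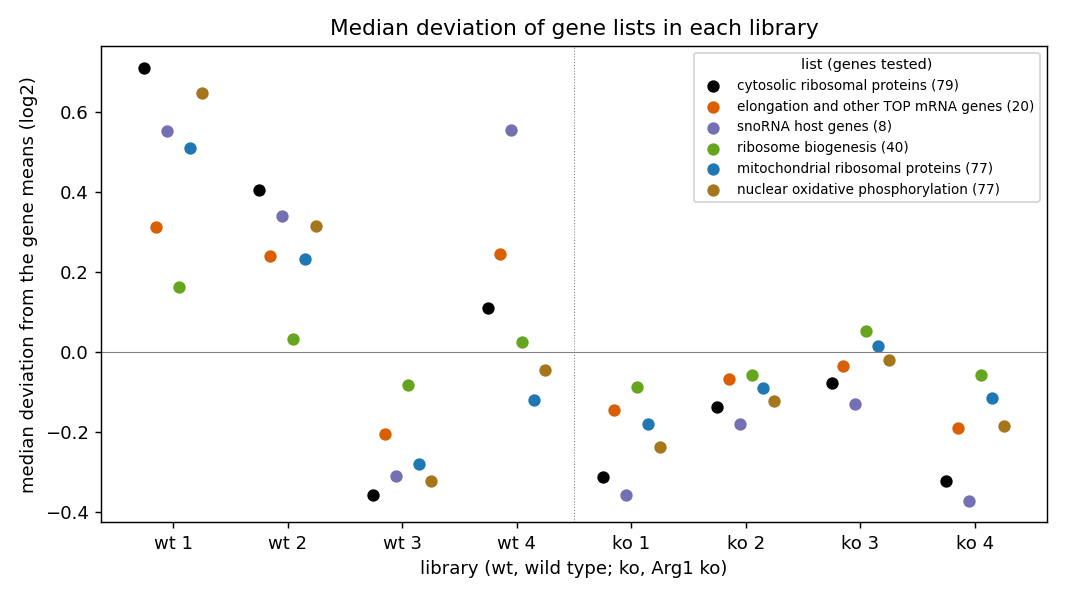
Median deviation from the gene means (log2, vertical axis) of 6 gene lists in each library (horizontal axis), with the number of genes tested in the key. Most lists are high in wild type 1 and 2 and low in wild type 3, and the ribosome biogenesis list is the flattest.

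Cell content was described with 4 marker lists, all of whose genes were tested. Fewer cells of a type and less RNA per cell cannot be told apart in such bulk samples. The 3 red blood cell genes (Hbb-bs, Hba-a1 and Alas2) moved with the members, with list medians of 1.30, 0.83, -0.74 and 0.30 in wild type and -0.79, -0.05, -0.44 and -0.44 in Arg1 ko. Their summed log2 level ran from 12.3 to 14.4 in wild type and from 12.3 to 13.0 in Arg1 ko. The 10 epithelial markers had summed levels of 18.1 to 18.6 and 18.2 to 18.4, the 10 leukocyte markers of 13.9 to 14.8 and 14.2 to 14.5, and the 10 stromal markers of 16.0 to 16.2 and 16.1 to 16.2. Of the epithelial markers 7 were lower in Arg1 ko (median -0.09), of the leukocyte markers 6 (median -0.08) and of the stromal markers 5 (median 0.02). At an unadjusted p under 0.05, the stromal markers Col1a1 (0.83), Col1a2 (0.57) and Col3a1 (0.70), which encode fibrillar collagens, were higher in Arg1 ko, and the neutrophil marker Ly6g (-1.35) and the keratin Krt18 (-0.35) were lower. Beside them, 4.73% of all tested genes were higher and 4.37% lower at that p in limma. The part of cell content in the members' result was not tested.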

How the data were processed

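The authors deposited 1 table of regularised log2 values (rlog, a log2 count scaled for depth and drawn toward the gene mean, most for genes with few reads), so differences of weak genes are understated and counts cannot be recovered. Each library took 1000 ng of total RNA and a stranded mRNA kit, per the labels' protocols. The submitters' processing notes name STAR 2.5.2b, BWA 0.7.14-r1136, DESeq2 1.16.1, featureCounts and Subread 1.5.3 on GRCm38. Annotation release, strand setting and treatment of reads with several matches are not given there.

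Genes were named from GENCODE vM21 (GRCm38), which held 53360 of 53465 IDs. Non-constant genes averaging 3 or more were fitted with limma 3.58.1 in R 4.3.3 (variance trend, all 8 libraries, two-sided, Benjamini-Hochberg over 16380 genes, threshold 0.05). Replicates are numbered in deposit order. The p-values measure the spread between these mice. Members named were a list of well-known subunits and paralogues, plus the 5 smallest p in each direction and the 3 extremes of range and of level per length; of each other list, up to 4 genes with the smallest p, and the 5 genes most alike. Members and lists were chosen with earlier results of these data known.

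Tested on simulated data for Arg1 ko against wild type (16380 genes), the fit recovered 25.4% of changes of 0.5, 68.7% of changes of 1 and 98.5% of changes of 2 (log2), with 3 false calls. The simulation drew each gene independently and gave both groups the same SD. In the data the SD was larger in wild type for 90.9% of genes, and the members moved together. The simulated figures therefore need not hold for these libraries or for the members. Alternatives varied the filter, scaling, weights, prior, threshold, length trend and libraries. Leaving out wild type 1 and 2 together was added after seeing the data. Results for some genes are not reported here.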

Additional observations from a re-analysis of the deposited data

Results flagged for a closer look

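Rpl4 in wild type stood out because 1 of its 4 libraries lay far from the others: the gap between wild type 3 and the next library was 0.909 of the group's whole range, above Dixon's 95% critical value for 4 samples. The wild-type values were 14.92, 14.94, 14.48 and 14.97. Chance marks about 1 in 20 groups, and 72 groups were examined, of which 1 was marked.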

How the results depend on the processing

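Over 18 alternatives the tested members stayed mostly lower in Arg1 ko (68 to 81 genes, the latter without a filter). Array weights, which gave wild type 2 a weight of 16.4 and the other wild-type libraries 0.135 to 0.304, called 10836 genes and 79 members, with a median difference of -0.64. The estimate of these weights raised 1 warning. Under them the wild-type mean rested almost wholly on wild type 2, so these calls do not measure the spread between wild-type mice. Leaving out 1 library at a time gave 0 to 1005 genes called, 0 to 49 members called, 0 to 77 members at an unadjusted p under 0.05, 0 to 73 members without overlap, and median differences of -0.62 to -0.26. With quantile normalisation 11 members had an unadjusted p under 0.05 (9.22% of all genes), with array weights 79 (69.2%). Without wild type 1 and 2 it was 1, with 2 members not overlapping, both higher in Arg1 ko (11.5% of all genes, and 11.2% wholly lower), and a median difference of -0.0828. Of 576 alternative values for 32 named members 521 kept direction and call. Another 49 passed the threshold in the same direction, 18 of them without wild type 3 and all the rest with array weights. The remaining 6 turned: Rpl7l1 with array weights (-0.2186, adjusted p in limma 0.00688, so it was then called lower) and without wild type 4 (-0.0862), Rpl13a without wild type 1 (0.0312), and, without wild type 1 and 2, Rpl13a (0.22), Rplp2 (0.0040) and Rps27l (0.0287). Under that last setting the list medians turned for ribosome biogenesis (0.0234), mitochondrial ribosomal proteins (0.0906), oxidative phosphorylation (0.0497), growth regulators (-0.0883) and leukocyte markers (0.0260). Without wild type 1 they turned for growth regulators (-0.0579), leukocyte (0.0634) and stromal markers (-0.0303). Stromal markers turned also without wild type 2 (-0.0028), Arg1 ko 1 (-0.0026) or Arg1 ko 2 (-0.0044) and with medians aligned (-0.0109), and leukocyte markers without wild type 3 (0.0514) and with array weights (0.112). The length trend turned stromal (-0.0050) and leukocyte markers (0.0647), growth regulators (-0.0620) and Rpl22l1 minus Rpl22 (0.0337), and quantile normalisation the epithelial markers (0.0746). With 1 library left out, Rpl13a ran from -0.3465 to 0.0312, Rpl7l1 from -0.0862 to 0.2303, growth regulators from -0.0579 to 0.1222, leukocyte markers from -0.2814 to 0.0634 and stromal markers from -0.0303 to 0.0678. The cause of these changes was not tested. No paired analysis was possible because the labels share no replicate numbers between the genotypes. Counting error could not be given, since the values hold no depth.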
